A study of Mus musculus with 15 samples.

Results

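Cytokines that B cells can make were followed from naive to memory B cells of the mouse spleen by the 11 probe sets that the deposited annotation assigns to 10 genes: Il12a, Ebi3, Lta, Ltb, Tnf, Tgfb1, Il16, Il15, Il10 and Il6. These were all probe sets with one of those symbols, out of 45037 probe sets and 16633 gene symbols on the array after 64 controls were left out. Il16 had 2 probe sets and every other gene had 1. The genes were listed by name, with earlier results of these data known.

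The study hybridised RNA of splenic B cells sorted for binding the hapten NP to 15 arrays, in 2 screens. All donors carried mVh186.2, a transgene for an antibody heavy chain used against NP. In the first screen, 3 naive arrays (A, B and C) and 4 memory arrays (D, E, F and G) came from mVh186.2 transgenic mice. In the second screen, 4 naive arrays (A to D) held AA4.1- cells of mVh186.2 transgenic Jk KO mice, which lack kappa J segments; AA4.1 marks immature B cells. Its 4 memory arrays (EK, FG, HJ and I) held cells that formed after mVh186.2 Tg splenocytes were moved into AM14/Vk8R transgenic recipients. Naive and memory cells of the second screen thus also differed in genotype and in transfer, so the memory state, Jk KO and transfer cannot be told apart there. Sorter (FACSVantage SE or FACSAria) and labelling (EnzoBio reagents or the MessageAmp kit) differed between the screens. All cells were kept in cold buffer with sodium azide. The labels call the replicates biological and do not say whether EK, FG and HJ pool several mice; the ages of the mice, the immunisation and the time since it are not given in the sources used here.

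Cytokines are secreted or membrane-bound proteins by which B cells act on other cells apart from making antibody. The protein of Il12a, p35, is secreted only with a partner chain: with the product of Il12b it forms IL-12, and with that of Ebi3 it forms IL-35, which restrains immune responses. Lymphotoxin-alpha and lymphotoxin-beta, from Lta and Ltb, together form a membrane complex on B cells that maintains the architecture of follicles in the spleen.

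Promoter windows for the members that were called in the second screen with the largest changes are shown. They place each gene and show annotated start sites, which are not always the outermost of the gene. Il12a lies at chr3:68690644-68698550, Ebi3 at chr17:55952623-55957022 and Lta at chr17:35203165-35205578 of GRCm38.p6, positions and sequences being those of RefSeq. Each window runs from 250 bases before to 50 bases after an annotated start, 5′ to 3′ on the gene's strand; capitals mark matches on either strand to the motifs searched.
Il12a first start, chr3:68690394-68690693, plus strand: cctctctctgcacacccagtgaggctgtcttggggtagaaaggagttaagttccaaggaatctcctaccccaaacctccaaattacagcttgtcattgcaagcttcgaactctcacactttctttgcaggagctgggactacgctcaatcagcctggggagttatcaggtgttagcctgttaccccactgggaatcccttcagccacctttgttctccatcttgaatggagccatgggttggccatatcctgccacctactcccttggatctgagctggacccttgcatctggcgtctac
Il12a second start, chr3:68691174-68691473, plus strand: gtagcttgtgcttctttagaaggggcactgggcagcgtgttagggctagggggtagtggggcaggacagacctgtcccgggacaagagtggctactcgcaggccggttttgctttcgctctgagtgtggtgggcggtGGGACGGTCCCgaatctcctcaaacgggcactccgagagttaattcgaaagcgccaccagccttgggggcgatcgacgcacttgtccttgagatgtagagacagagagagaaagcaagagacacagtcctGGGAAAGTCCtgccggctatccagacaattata
Ebi3, chr17:55952373-55952672, plus strand: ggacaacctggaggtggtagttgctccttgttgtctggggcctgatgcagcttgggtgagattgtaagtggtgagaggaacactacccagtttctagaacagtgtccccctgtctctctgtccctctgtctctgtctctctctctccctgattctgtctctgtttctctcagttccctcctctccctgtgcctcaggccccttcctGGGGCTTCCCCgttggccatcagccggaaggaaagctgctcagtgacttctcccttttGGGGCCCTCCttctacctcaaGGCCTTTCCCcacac
Lta, chr17:35205302-35205601, minus strand: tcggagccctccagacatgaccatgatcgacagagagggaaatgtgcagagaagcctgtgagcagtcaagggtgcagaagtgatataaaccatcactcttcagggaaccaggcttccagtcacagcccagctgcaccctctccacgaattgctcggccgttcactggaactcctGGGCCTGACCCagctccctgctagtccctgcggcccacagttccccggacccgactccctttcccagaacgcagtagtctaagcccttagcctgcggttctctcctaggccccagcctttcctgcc

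The motifs were a loose NF-kB pattern, GGGNNNNNCC, and an AP-1 pattern, TGANTCA, searched on both strands. They were present in 50.79% and 7.81% of the 32851 promoter windows in the reference table. The window at the second Il12a start held 3 NF-kB matches, of which a pair overlapped, and the first start held 0. Ebi3 held 4 matches and Lta 2, again with 1 overlapping pair each, and none of these windows held the AP-1 pattern. The NF-kB pattern is common enough that its presence in a window is a description and not a site. A window was found for 8 of the 10 member genes. The only Lta window is that of a start inside the gene's bounds, so most of its upstream bases lie within the gene. Which of the 2 Il12a starts the probe set reads was not tested.

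Values are deposited intensities, compared as log2(intensity + 1). To be tested, a probe set had to exceed the overall median of the screen, log2 6.98 on 3 or more arrays (first) or 4.73 on 4 or more (second), which kept 23813 and 22638 probe sets. Memory cells were set against naive cells within a screen by limma, and a call is a Benjamini-Hochberg adjusted p under 0.05 over all kept probe sets. Among the members, levels of different probe sets are not compared. Marker intensities are summed over probe sets, and their levels are compared only to say which markers weigh most in a sum. Median array intensity was 103.4 to 153.7 in the first and 25.0 to 26.0 in the second screen, and the median SE of a change was 0.285 and 0.0966, so the first screen resolves less. In the first screen naive C and memory G deviated from their group means together (r = 0.48 across 23813 probe sets, against -0.42 to 0.24 for the other 11 naive and memory pairs). In the second screen the highest such r was 0.27, for naive C with memory I.

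Memory cells of the second screen had lower transcript levels of Il12a, Ebi3, Lta and Il16 than naive cells. Of the 8 member probe sets that passed the filter, 5 were called lower and 0 higher (62.5% lower), where 14.4% of all kept probe sets were called lower and 9.61% higher. On the same 5, every memory array lay below every naive array, as on 16.1% of kept probe sets. The median change of the 8 was -0.49 on the log2 scale and that of all kept probe sets -0.03. In the first screen 0 of 8 member probe sets were called, where 0.084% of kept probe sets were called lower and 0.407% higher. Il12a and Ebi3, 2 of the 8, had every memory array below every naive array there, as had 4.13% of kept probe sets; the median change was -0.21 against 0.02 for all. The same 7 genes were tested in each screen, and Il10, Il6 and Il15 were below the filter in both.

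**Figure D1:**
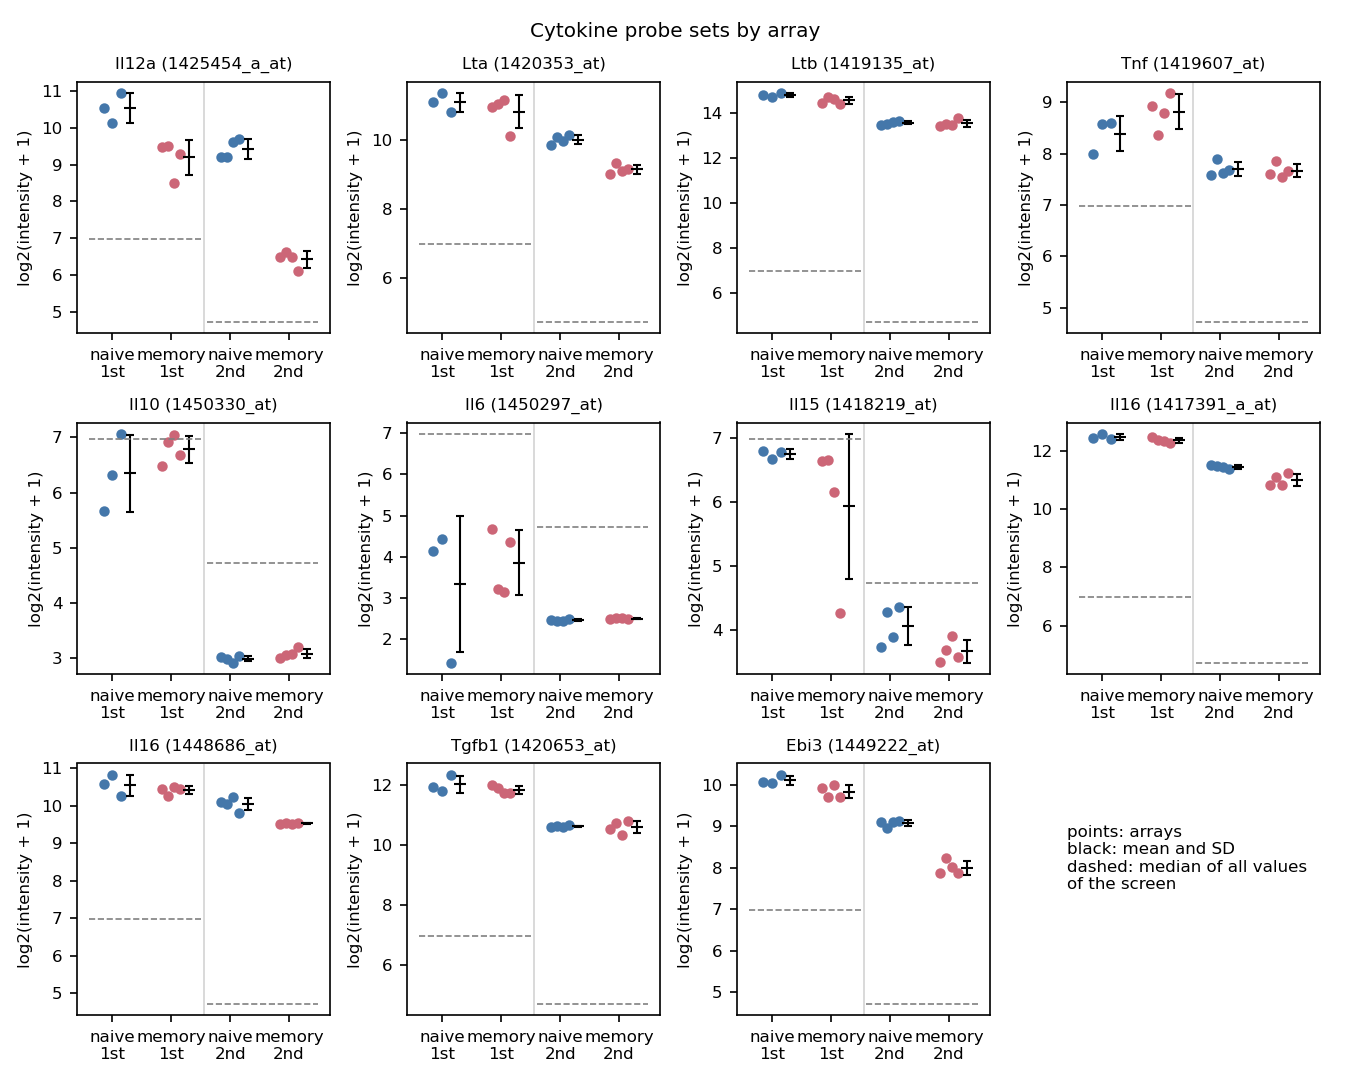
Log2(intensity + 1) of the 11 cytokine probe sets on each of the 15 arrays, naive (blue) and memory (red) in each screen, with mean and SD in black and the median of all values of the screen dashed. Il12a shows the widest separation, with memory arrays of the second screen at 6.10 to 6.62 and naive arrays at 9.20 to 9.70, while Il10, Il6 and Il15 of the second screen lie below the dashed line; the vertical scales differ between panels.

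Il12a encodes p35, the chain shared by IL-12 and IL-35. Second-screen intensity was 589.7, 586.7, 788.1 and 833.6 on naive arrays A to D. It was 88.1, 97.3, 88.7 and 67.5 on memory arrays EK, FG, HJ and I. All 4 memory arrays lay far below all 4 naive arrays, and the arrays of each group lay close together. The log2 mean was 9.43 ± 0.27 (SD, n = 4) in naive and 6.42 ± 0.22 (SD, n = 4) in memory cells. Il12a thus fell by 3.01 on the log2 scale (SE 0.15, 95% interval -3.36 to -2.67, limma adjusted p = 2.36e-06), to 12.4% of the naive level or 8.07-fold lower. It had the 13th largest fall of the 22638 probe sets kept. In these bulk samples, fewer cells with a transcript and less transcript per cell cannot be told apart.

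Il12a in the first screen was 1484, 1132 and 1985 on naive A, B and C. It was 714.8, 724.6, 362.3 and 630 on memory D, E, F and G. The groups again did not overlap, and memory F was the lowest array. The log2 mean was 10.55 ± 0.40 (SD, n = 3) in naive and 9.20 ± 0.47 (SD, n = 4) in memory cells, a change of -1.35 (SE 0.29, 95% interval -2.01 to -0.69) or 39.3% of naive. The unadjusted limma p was 0.00132 and the adjusted p 0.132, so Il12a was not called in the first screen. With a block for naive C and memory G the change was -1.32 and called (adjusted p = 0.0196), and without both it was -1.18 and called (adjusted p = 0.0386). Over all 21 alternative settings the change ran from -1.55 to -1.06 and the adjusted p from 0.00586 to 0.409, with 4 settings calling it.

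The partner chains of p35 were looked at by their own probe sets. Il12b, the p40 chain of IL-12, had 2 probe sets, and Il23a, the p19 chain that joins p40 in IL-23, had 1; all 3 were below the filter in both screens. Second-screen log2 means of Il12b were 3.74 ± 0.04 and 2.70 ± 0.02 (SD, n = 4) in naive and 3.81 ± 0.06 and 2.73 ± 0.02 in memory cells. Neither was called when tested without the filter (adjusted p = 0.296 and 0.323), nor was Il23a (0.384). A signal below the median of the screen has no reliable level, so presence or absence of these transcripts was not measured. The p28 chain of IL-27 was not analysed here.

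Ebi3 encodes the other chain of IL-35 and of IL-27. Its intensity in the second screen was 552.0, 497.7, 552.9 and 559.8 on naive A to D. It was 234.6, 300.9, 257.4 and 233.6 on memory EK, FG, HJ and I. The groups stood clearly apart, with naive B the lowest of the naive and memory FG the highest of the memory arrays. Ebi3 fell by 1.08 on the log2 scale (SE 0.09, 95% interval -1.29 to -0.87, limma adjusted p = 5.27e-05), from 9.08 ± 0.08 to 8.00 ± 0.17 (SD, n = 4 each), which is 2.11-fold. First-screen intensity was 1063, 1050 and 1206 on naive arrays and 973.8, 833.3, 1023 and 833.7 on memory arrays. The memory arrays lay just below the naive arrays there, and the change of -0.28 (95% interval -0.62 to 0.07, limma adjusted p = 0.709) was not called. Of the 3 genes of the IL-12 family list that were measured in the second screen, Il12a and Ebi3 fell and Clcf1, a cytokine chain related to the IL-6 group, changed by -0.03 and was not called.

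Lta encodes lymphotoxin-alpha. Its second-screen intensity was 910.5, 1078, 999.6 and 1122 on naive A to D. It was 512.4, 639.8, 543.5 and 570.3 on memory EK, FG, HJ and I. No memory array reached the lowest naive array. Lta fell by 0.86 on the log2 scale (SE 0.09, 95% interval -1.06 to -0.66, limma adjusted p = 0.00016), 1.81-fold. First-screen naive arrays were 2185, 2610 and 1787 and the memory arrays 1965, 2117, 2296 and 1099. These groups overlapped widely, with memory G far below the other 3 memory arrays, and the change of -0.27 (95% interval -0.87 to 0.33) was not called (limma adjusted p = 0.884).

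Lta has Tnf and Ltb as neighbours on chromosome 17. Ltb lies at chr17:35194507-35196305 and Tnf at chr17:35199367-35202007 of GRCm38.p6, and the 3 genes span 11072 bases, with 3061 bases between Ltb and Tnf and 1157 between Tnf and Lta. Ltb, the chain that anchors lymphotoxin-alpha to the membrane, was in the second screen 11587, 12001, 12723 and 12957 on naive and 10990, 11877, 11366 and 14133 on memory arrays. The groups overlapped and the change was -0.03 (95% interval -0.21 to 0.15, limma adjusted p = 0.806). Tnf, an inflammatory cytokine, was 191.9, 238.8, 196.6 and 205.2 on naive and 193.7, 231.2, 187.1 and 201.7 on memory arrays. Its groups overlapped almost fully, with a change of -0.03 (95% interval -0.26 to 0.19, limma adjusted p = 0.848). The intervals of Ltb and Tnf lie above that of Lta and still leave room for small changes; the difference between the genes was not tested.

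First-screen Ltb changed by -0.24 (95% interval -0.50 to 0.01, limma adjusted p = 0.607). Tnf was 254.2, 381.2 and 388.1 on naive and 484.9, 329.9, 442.5 and 581.2 on memory arrays. Memory D, F and G lay above all naive arrays and memory E between them, and the change of 0.43 (95% interval -0.16 to 1.01) was not called (limma adjusted p = 0.753). Beyond the 3 neighbours, the other TNF superfamily ligands that were measured gave no call in either screen: of 5 measured ligands of the second screen 1 was called lower, which was Lta, and 0 of 7 were called in the first. Over all kept probe sets 14.4% were called lower and 9.61% higher in the second screen, and 0.084% and 0.407% in the first.

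Il16 encodes a precursor whose secreted part attracts cells that carry CD4. The gene lies at chr7:83642819-83746028 of GRCm38.p6, and both of its probe sets were called lower in the second screen. On the probe set whose name ends in _a_at the second screen gave 2962, 2885, 2811 and 2650.1 on naive and 1836, 2228, 1815 and 2430.2 on memory arrays, without overlap, and the level fell by 0.45 on the log2 scale (SE 0.10, 95% interval -0.67 to -0.23, limma adjusted p = 0.00916). The other probe set was 1084, 1054.5, 1196 and 897.7 on naive and 727.4, 742.3, 721.6 and 747.5 on memory arrays, and fell by 0.52 (SE 0.08, 95% interval -0.71 to -0.33, limma adjusted p = 0.00207). Memory arrays of the latter were nearly identical, and naive D was its lowest naive array. These are falls of 1.37-fold and 1.43-fold. First-screen changes were -0.12 and -0.13, with adjusted p = 0.873 and 0.915 by limma. A further 2 probe sets carry Il16 only as an alias without a symbol, are no members by the rule, and were not called in either screen (-0.05 and -0.27 in the first, -0.05 and -0.02 in the second).

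Tgfb1 encodes a cytokine that is stored in latent form and restrains lymphocytes, and lies at chr7:25687002-25705077 of GRCm38.p6. Its intensity in the second screen was 1569, 1585, 1552 and 1611 on naive and 1490, 1718, 1287 and 1768 on memory arrays. The memory arrays lay on both sides of the tightly grouped naive arrays. The change was -0.02 (95% interval -0.24 to 0.19, limma adjusted p = 0.885), and in the first screen -0.17 (95% interval -0.53 to 0.18, adjusted p = 0.866). The signs of the small second-screen changes of Tgfb1 and Tnf turned under quantile normalization. All 8 member changes of the second screen were negative as reported, against 54.8% of kept probe sets.

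Il15 (chr8:82331624-82403252), Il10 (chr1:131019845-131024970) and Il6 (chr5:30013114-30019975, all GRCm38.p6) were too dim to carry a level. Il15, which supports NK and memory T cells, was 12.3, 18.4, 13.8 and 19.3 on naive and 10.3, 11.9, 13.9 and 10.8 on memory arrays of the second screen. Il10, an inhibitory cytokine of regulatory B cells, was 6.5 to 7.2 on naive and 7.0 to 8.2 on memory arrays there. Il6, an inflammatory cytokine, was 4.5 to 4.6 and 4.6 to 4.7. Tested without the filter they changed by -0.40, 0.09 and 0.03, and none was called by limma (adjusted p = 0.154, 0.235 and 0.19). First-screen intensity of Il15 was 100 to 110.2 on naive and 18.2 to 99.8 on memory arrays, just apart, with memory G far the lowest. Il10 was 49.7 to 132.8 and 88.3 to 131.7, and Il6 1.7 to 20.6 and 7.8 to 24.6, with overlapping groups for both. First-screen changes without the filter were -0.82, 0.43 and 0.52 with none called (limma adjusted p = 0.841, 0.892 and 0.932) and wide intervals, the widest for Il6 (-1.32 to 2.36). Whether these cells held such transcripts at a low level was not detectable at this signal.

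**Figure D2:**
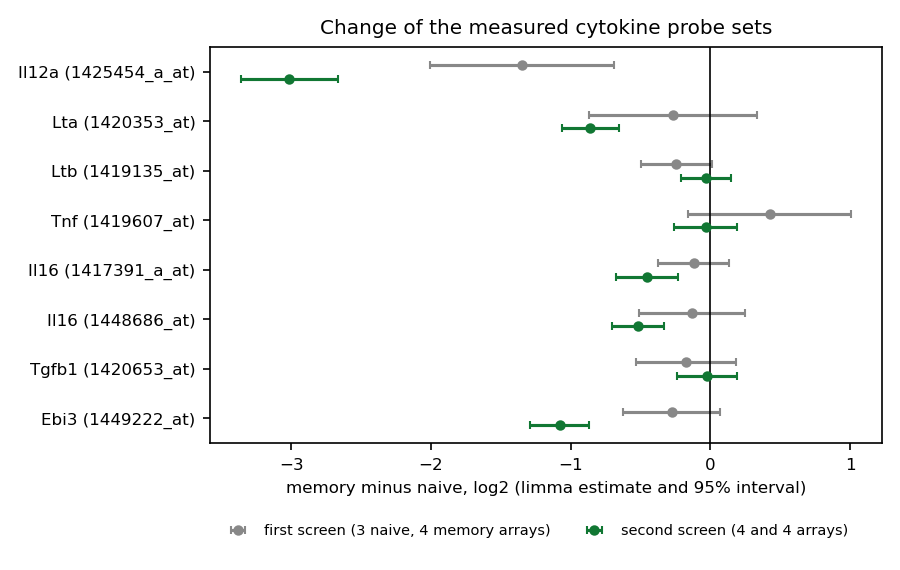
Memory minus naive change on the log2 scale of the 8 cytokine probe sets that passed the filter, with limma estimates and 95% intervals, first screen in grey (3 naive and 4 memory arrays) and second in green (4 and 4). Il12a has the most negative estimate in each screen, -1.35 and -3.01, and the grey intervals are wider than the green ones for every probe set.

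Changes were more negative in the second screen than in the first for Il12a by -1.67 (SE 0.34, 95% interval -2.40 to -0.94, limma adjusted p = 0.0382) and for Ebi3 by -0.80 (SE 0.16, 95% interval -1.15 to -0.46, limma adjusted p = 0.0344), in a fit of all 15 arrays. These were the 2 calls among the 8 member probe sets; of 19781 probe sets kept in both screens 0.784% were called in either direction and 0.415% as more negative in the second. The difference for Lta was -0.59 (95% interval -1.20 to 0.02, adjusted p = 0.469), and those of Il16, Ltb, Tnf and Tgfb1 were not called. The calls are weak. Il12a lost its call in 15 of 20 alternatives and Ebi3 in 14, among them quantile normalization (adjusted p = 0.066 and 0.0558), weighting the arrays by screen (0.176 and 0.302) and leaving out naive A, naive B or memory D of the first screen. In this pooled fit the noisier first screen shares 1 spread with the second. Screen, sorter, labelling, genotype and transfer all differed between the screens, and only the naive cells of the second were named AA4.1-. Values of the second screen were summarised with GCRMA, and the software for the first was not given. These differences cannot be told apart.

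Genes that control transcription and RNA decay of cytokines were mostly lower in memory cells of the second screen. Of 25 measured, 15 were called lower and 1 higher, where 14.4% of all kept probe sets were called lower and 9.61% higher. The median change was -0.24 against -0.03 over all kept probe sets. Bcl3, an atypical IkB protein that acts with NF-kB in the nucleus, fell by 1.42 on the log2 scale (SE 0.10, adjusted p = 1.59e-05), and Rel, the NF-kB subunit c-Rel, fell by 1.16 (SE 0.11, adjusted p = 7.93e-05), both by limma. Nfkbie, an inhibitor of NF-kB, fell by 0.84, and Irf8, a transcription factor of B and myeloid cells, fell by 0.99. Some other genes of the list are named here after their values were seen. Rela and Nfkb1 were not called (0.23 and -0.07). Maf, a factor known to drive Il10 in T cells and macrophages, fell by 1.79, and Batf, a partner of AP-1 factors, rose by 0.42. Among 26 measured in the first screen 0 were called, with a median change of -0.19 against 0.02 over all; Bcl3 was -1.14 (adjusted p = 0.0887) and Bhlhe40, a repressor of Il10 in T cells, -1.46 (adjusted p = 0.103). Median centring kept the calls of the second screen at 15 lower and 1 higher, and quantile normalization gave 14 and 2.

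**Figure D3:**
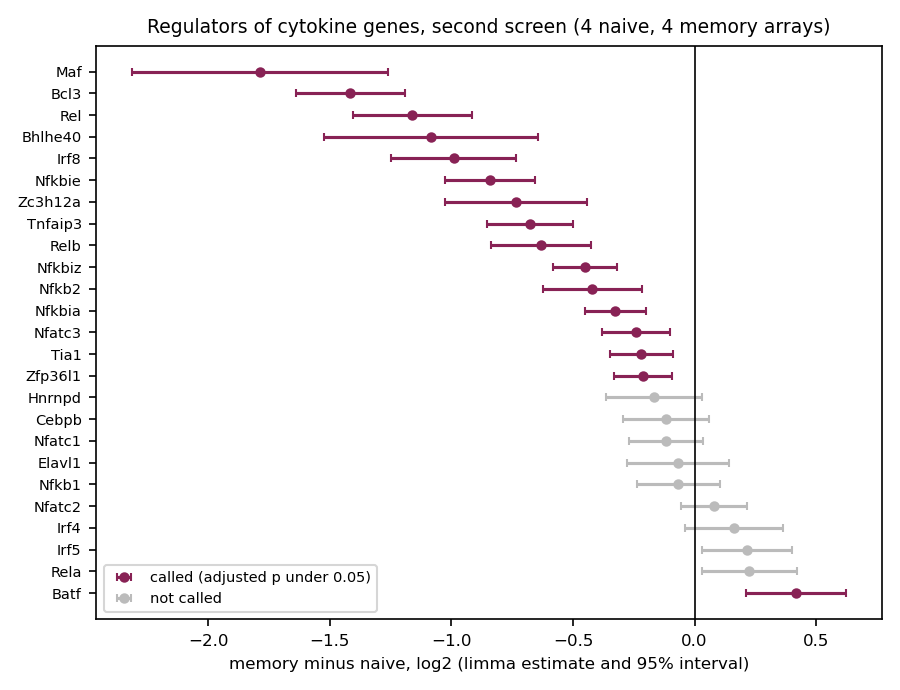
Memory minus naive change on the log2 scale, with limma estimates and 95% intervals, of the 25 measured genes that control cytokine transcription and RNA decay in the second screen (4 naive and 4 memory arrays); called genes are coloured. Of the 25, 15 were called lower, from Maf at -1.79 to Zfp36l1 at -0.21, and only Batf was called higher in this fit, at 0.42.

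Receptors and processing genes of these cytokines gave a few calls each way, as did kept probe sets at large (14.4% lower and 9.61% higher in the second screen). Of 14 measured receptors of that screen, 2 were called higher and 4 lower. Il6ra, the IL-6 receptor chain, rose by 1.19 (limma adjusted p = 0.00264) and Tnfrsf1b, a TNF receptor, by 0.66 (0.00174). Il2rb, a chain of the IL-15 receptor, fell by 1.30 (limma adjusted p = 0.000773), and Cd9, a tetraspanin, fell by 2.36 (4.05e-06). Of 7 measured genes of processing and latency, 2 were called in each direction: Adam17, the protease that sheds TNF, fell by 0.82, and its cofactor Rhbdf2 rose by 0.47; Ltbp4, which binds latent TGF-beta, rose by 1.57, and Itgav, an integrin chain that helps activate it, fell by 0.63. Among first-screen receptors 0 of 15 were called, and 0 of 8 processing genes.

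Downstream of the receptors, 3 of 15 measured JAK, STAT and SOCS genes were called higher and 3 lower in the second screen. Over all kept probe sets 9.61% were called higher and 14.4% lower, and the median change was -0.03 in the list and over all. Median centring left 2 higher, without Stat5a. Cish, an inhibitor induced by STAT5, rose by 2.57 (SE 0.15, limma adjusted p = 4.77e-06). Stat4, which conveys IL-12 signals, fell by 1.34 (limma adjusted p = 0.00138). The first screen had 0 of 16 called, with Cish at 0.74 (adjusted p = 0.377).

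Few other secreted factors were measured in the second screen, where 14.4% of all kept probe sets were called lower and 9.61% higher. Of 6 measured interleukins and colony-stimulating factors outside the members 2 were called, both higher. Il18 rose by 0.80 (limma adjusted p = 0.0125) and Osm by 0.77 (0.00203). Of 5 measured chemokines 1 was called: Ccl5, which T and NK cells also make, fell by 1.73 (7.85e-05). The first screen had 0 of 11 and 0 of 8 called. Genes reported in B cells that make IL-10 gave 9 lower and 1 higher of 14 in the second screen, against 14.4% and 9.61% of all kept probe sets, with a median change of -0.30 against -0.03. One of the 9, Cd5, passed the filter only through the naive arrays, so its fall was favoured by the filter, and quantile normalization gave 8 lower, without Cd24a. Among the called were Fcer2a (CD23) at -1.40 and Cd80 at 2.49. In the first screen, Fcer2a alone of 15 was called, at -1.04 (limma adjusted p = 0.0245), and lost that call under median centring. Il10 itself stayed below the filter.

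The sort was checked by markers. All 10 B cell identity genes were measured in each screen. Their summed intensity in the second screen was 128747 to 133559 on naive and 124959 to 138181 on memory arrays, and 1 of the 10 was called (Blnk, -0.37). First-screen sums were 182756 to 200496 and 153229 to 184191, with 0 calls.

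T cells also make Lta and Il16, NK cells also make Lta, and dendritic cells and macrophages also make the proteins of Il12a and Ebi3. In the second screen, 6 of 9 measured T cell markers were called lower, where 14.4% of all kept probe sets were. The summed intensity of the 9 was 1606 to 2269 on naive and 964 to 1154 on memory arrays. Lck fell by 2.02, while Cd247 (-0.29), Cd8a (-0.17) and Cd4 (0.12) were not called. Cd247, Lck and Lat had the highest naive log2 means of the 9 (9.31, 8.90 and 8.23). Cd3e, Thy1, Cd8b1 and Trac had no measured probe set. Of 10 NK cell markers 4 were measured and called lower, with sums of 549 to 895 and 123 to 232; one of them, Nkg7, passed the filter only through the naive arrays. Of 3 measured dendritic cell markers of 9, Flt3 (-0.56) and Ccr7 (-1.11), the latter also a homing receptor of B cells, were called lower. Sums of the 3 were 1715 to 2135 and 813 to 1155, and most of that intensity was Ccr7. Naive log2 means were 10.77 for Ccr7, 6.405 for Flt3 and 6.15 for Zbtb46, which was not called (-0.10). Itgax, Siglech, Xcr1, Clec9a, Cd209a and Batf3 had no measured probe set. The T, NK and dendritic cell sums moved the same way as Il12a, Ebi3, Lta and Il16, the last mainly through Ccr7. Their part in those results was not tested. Of 11 measured myeloid markers only Cd68 was called, higher by 0.89, and the sums overlapped at 18281 to 28020 and 20621 to 27336. Most of that intensity was Ctss (-0.07), so the sums say little of the other markers. S100a8, S100a9, Ngp and Camp were higher by 1.52, 1.58, 1.71 and 1.64, with overlapping groups and no call. The median myeloid change was 0.22 against -0.03 for all, and Ctss and Fcgr1 (-0.02) were the only falls. The part of myeloid cells was not tested either.

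Among the other cells checked in the second screen, 7 measured markers of antibody-secreting cells gave sums of 10677 to 14097 on naive and 19407 to 21966 on memory arrays. The rise of the sum lay mainly in Jchain, which was higher by 3.36. Mzb1 was lower by 0.23, a call that it lost under median centring. Irf4 (0.16), Prdm1 (0.10), Xbp1 (0.08), Sdc1 (0.06) and Fkbp11 (-0.005) were not called. The 4 measured erythroid and platelet markers gave 0 calls. First-screen T cell sums were 2740 to 3007 on naive and 2132 to 2384 on memory arrays with 0 of 5 called. Lat (-1.28), Lck (-0.95) and Cd8a (-0.84) were lower there, and Cd3e (0.72) and Cd247 (0.05) went the other way. The dendritic cell sums of the first screen were 2535 to 4272 and 1819 to 2643 with 0 of 6 called. Of those 6 first-screen markers Ccr7 (-0.89) had the highest mean. The NK sums there ran the other way, 188 to 263 and 254 to 452, with 0 of 2 called. The first-screen myeloid sums were 25466 to 27090 and 24581 to 34386 with 0 of 11 called, and most of that intensity was Ctss. The median myeloid change was 0.82 against 0.02 for all, with S100a8 at 3.34, S100a9 at 2.87 and Lyz2 at 1.45 (limma adjusted p = 0.189, 0.199 and 0.131). Fcgr1, Ctss and Csf3r went the other way (-0.29, -0.11 and -0.03). Antibody-secreting cell sums of that screen were 32101 to 37869 and 42071 to 48093 with Jchain called higher of 6 (3.46, limma adjusted p = 0.00275). The others were not called, with Fkbp11 (1.23) and Prdm1 (0.41) higher and Mzb1 (-0.18), Irf4 (-0.10) and Xbp1 (-0.05) lower. First-screen erythroid and platelet sums were 2491 to 5961 and 7719 to 29996 with 0 of 6 called.

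**Figure D4:**
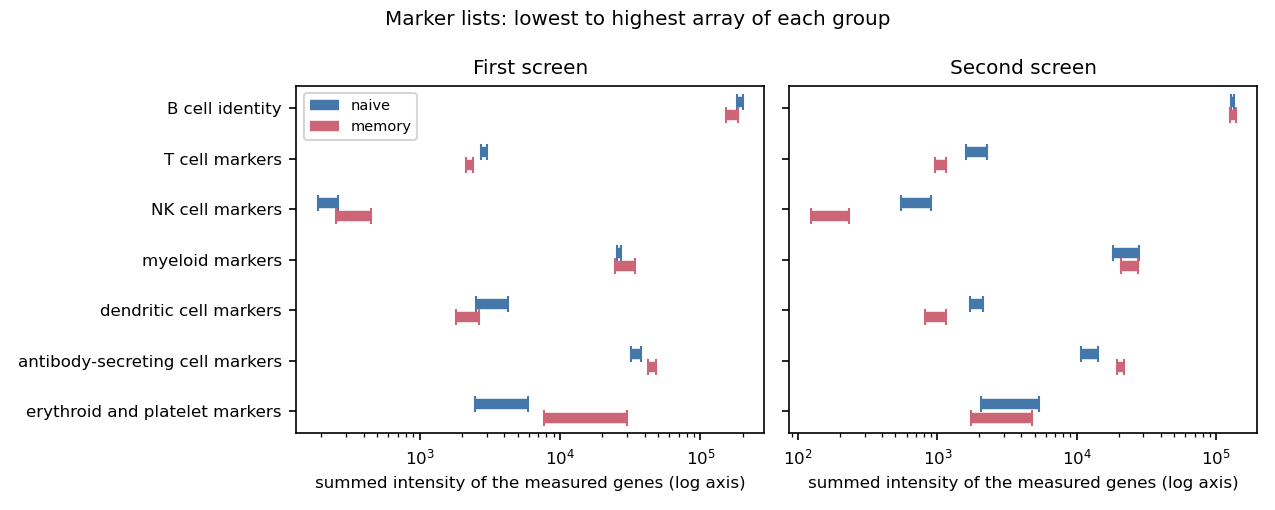
Range from the lowest to the highest array of the summed intensity of the measured markers of 7 cell types, on a log axis, for naive (blue) and memory (red) arrays of each screen. In the second screen the memory ranges of T, NK and dendritic cell markers lie below the naive ranges (T cells 964 to 1154 against 1606 to 2269), while B cell identity genes overlap. Most of the second-screen dendritic cell sum is Ccr7, and most of the myeloid sum is Ctss.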

How the data were processed

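The 15 arrays hold 45101 probe sets each. Values are intensities on a linear scale as deposited; those of the second screen were summarised by the authors with GCRMA, per the submitters' processing notes (no version stated); for the first the software was not given in the sources used here. GCRMA lowers the background of dim probe sets, so log2 changes may not be on the same footing in the 2 screens. The deposited tables also give a p-value by the authors, which equals an equal-variance t-test on linear intensity of the same screen (100.0% within 0.0001), although the header of the first table names the second screen. Their pooled columns are sums of arrays in the first and means in the second screen. Neither was used in the comparisons, and the annotation of the second table supplied the symbols; 12878 probe sets have none.

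From these, log2(intensity + 1) was tested in each screen with R 4.3.3 and limma 3.58.1 (lmFit, then eBayes with trend) over the probe sets above the screen median on at least as many arrays as the smaller group. P-values were adjusted by Benjamini and Hochberg's method over one screen, and 0.05 was the threshold. The difference between the screens was a contrast in a fit of 4 groups on 15 arrays. Outside the members a gene is its kept probe set with the highest mean, symbols being updated through RefSeq synonyms, and up to 4 called genes of smallest p, or 2 uncalled, are named per list, though not every gene so selected is reported here. Genes most like a member were to be named where it was called in both screens, which 0 were. The members and lists were chosen with earlier results of these data known. Intervals are 95%. The number of arrays limits the precision, and p-values measure the spread between arrays the labels call biological replicates. The tests were tried on simulated data, where the difference test called too many probe sets, so 2 alternatives were added for it after the data were seen. Other alternatives changed the filter, scaling, pseudocount, estimator, weights or arrays. Reading, sequences and figures used pandas 2.3.3, SciPy 1.17.1, Matplotlib 3.10.9 and NumPy 2.4.6 in Python 3.11.15.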

Additional observations from a re-analysis of the deposited data

Results flagged for a closer look

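Naive array B of the second screen stood apart from the other 3 naive arrays for Ebi3, at 8.96 against 9.11 to 9.13 on the log2 scale. Of 33 groups of 4 arrays looked at in this way it was the only one past the limit, which chance passes in about 1 group in 20. Its distance is small beside the fall of Ebi3 in that screen (-1.08), which was called with and without that array.

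The changes of Il12a and of Ebi3 differed between the screens, by -1.67 and -0.80 on the log2 scale (second minus first, limma adjusted p = 0.0382 and 0.0344 over 15 arrays). All 4 memory arrays lay below all naive arrays in each screen for both genes. Weighting the arrays by screen gave adjusted p = 0.176 and 0.302.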

How the results depend on the processing

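Second-screen Il12a (-3.09 to -2.81) and Ebi3 (-1.16 to -1.03) were called lower in all 20 alternatives; Lta and Il16 lost their calls only where a fold of at least 2 was asked as well, which left 2 member probe sets of 5 called and 1093 probe sets of 5444 in all. The fit of all 15 arrays called 2249 in all there. In the first screen, 1 member probe set (Il12a) rather than 0 was called with array weights (-1.06, adjusted p = 0.0307), in the fit of all 15 arrays (0.00586), with a block for naive C and memory G and without both. The count of all calls there, 117, became 63 with median centring, 1032 with array weights, 1222 in the 15-array fit, 24 by the t-test on linear intensity, 856 with the block, 1173 without both arrays and 45 to 136 with 1 array left out (45 to 54 without naive A, naive B, memory D, E or F). Median centring moved the median change of all probe sets of the first screen from 0.02 to -0.17.

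For the difference between the screens, 155 calls in all became 524 by the normal approximation, 35 with arrays weighted by screen, and 75 to 671 with 1 array left out. The 2 members called more negative became 0 with quantile normalization, 1 with a pseudocount of 16, 1 with Satterthwaite degrees of freedom, 0 with weights by screen, and 0 to 3 with 1 array left out. Lta joined them without memory G of the first screen (-0.83, adjusted p = 0.0329).

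Signs turned only for changes that were not called. In the first screen Tgfb1 became 0.0093 with array weights and 0.0201 without naive C and memory G, and with 1 array left out the second Il16 probe set ran from -0.2761 (without naive C) to 0.0012 (without naive B). In the second, quantile normalization gave 0.0239 for Tnf and 0.0078 for Tgfb1. With 1 array left out, Tnf ran from -0.0949 to 0.0354 (above 0 without naive B or HJ), Tgfb1 from -0.0859 to 0.0667 (without HJ), Ltb from -0.1095 to 0.0114 (without EK), and the difference of Tgfb1 from -0.0069 (without naive C of the first screen) to 0.2638. The cause of these shifts was not tested. No paired analysis was possible because naive and memory arrays of a screen share no replicate letter. Il10, Il6 and Il15 lie too near background for a change to be measured.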
